A study of Mus musculus with 6 samples.

Results

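SR proteins, heterogeneous nuclear ribonucleoproteins (hnRNPs) and their partners in splicing were followed in haematopoietic stem cells (HSCs) of young and old mice. Members were the rows of the deposited count table whose gene symbol in the GRCm38 annotation begins with Srsf, Sf3a or Sf3b plus a number, with Hnrnp, Tra2 or U2af, or with Rbm plus a number. The rule uses names and no measured value, and it gave 83 of 16312 genes. These were 11 Srsf, 20 Hnrnp, 9 Sf3a and Sf3b, 2 Tra2, 3 U2af and 38 Rbm genes. All but Rbm24 passed the filter on low counts, so 82 of the 14288 tested genes were members. The name alone does not make a gene a splicing factor, and several Rbm members are known for other steps of RNA metabolism.

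The study sequenced sorted bone marrow HSCs of male mice, named C57BL/6N in the series title, that were labelled as B6 controls within a parabiosis project. The young group was 8 to 12 weeks old and the old group 22 months old at the procedure, with 3 libraries of each age, described as biological replicates, and no genetic change or agent is named. Totals ran from 12494557 counts in old replicate 2 to 30931680 in young replicate 3. By title the young libraries are numbered 1, 5 and 24 and the old ones 28, 29 and 30. What these numbers stand for is not stated, and age and number order cannot be told apart. Young replicate 2 carries different library numbers in its title and its description. Of 10 HSC markers listed for the check of identity, all 10 were tested, and their summed level ran from 3707 to 4271 CPM in young and from 3929 to 4257 CPM in old libraries, and Procr and Slamf1 of that list rose. CPM is the count relative to the library's total, after scaling by TMM factors. The counts are sums over all transcripts of a gene, so the levels of splicing factor transcripts were measured and the splicing of their targets was not.

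Splicing removes introns in a large RNA-protein machine, the spliceosome. SR proteins carry RNA recognition motifs and a tail rich in arginine and serine, bind exons and recruit the spliceosome to nearby splice sites. Many hnRNPs bind introns or exons and oppose that choice, so the balance between both families sets which exons are kept. U2AF recognises the 3′ splice site and the SF3A and SF3B complexes hold the U2 particle on the branch point. In human blood, SF3B1, SRSF2 and U2AF1 are among the genes that acquire mutations in clonal haematopoiesis and myelodysplastic syndromes, conditions whose frequency rises with age. Many SR and hnRNP genes hold poison exons, whose inclusion sends the transcript to nonsense-mediated decay and lowers the level of the protein.

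Transcripts of these families differed little between old and young HSCs. None of the 82 tested members passed an adjusted p of 0.05 (edgeR quasi-likelihood test, Benjamini-Hochberg over all genes), against 3.99% of all tested genes, of which 2.45% were higher and 1.54% lower in old mice. At an unadjusted p under 0.05 there were 6 members (7.32%), 3 higher (Srsf5, Rbm18 and Rbm38) and 3 lower (Hnrnpab, Hnrnpr and Hnrnph3) in old mice. The background was 16.5% of all tested genes, 8.84% higher and 7.63% lower. With DESeq2 on the same genes 3 members were called, all higher in old mice, against 7.7% of its genes, and with limma-voom 1 was called, against 3.95%. Without young replicate 2, the library with unlike numbers, edgeR called 423 genes and again no member. The median log2 fold change of old over young was −0.04 over the members and −0.02 over all tested genes, and 49 members (59.8%) had a negative and 33 a positive value, against 51.8% negative over all tested genes. In 30 members the sign differed in at least 1 of 14 alternative analyses. The median size of the log2 fold change, without its sign, was 0.15 for members and 0.26 for all tested genes. A p above the threshold does not show that levels were equal, but the intervals bound the difference. For 71 members (86.6%) the 95% interval of the fold change lay within 2-fold in either direction, and for 54 (65.9%) within 1.5-fold. Over all tested genes these shares were 56.1% and 27.4%, with a median level of 21.4 CPM against 97.1 CPM for the members. No member had a fitted difference of 2-fold in the fit of all libraries, while 9.48% of all tested genes did. Over the 14 alternatives the log2 value reached 1.04 for Srsf12 and 1.39 for Rbm46, both scarce. In such bulk samples fewer cells of a type and less RNA per cell cannot be told apart.

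**Figure D1:**
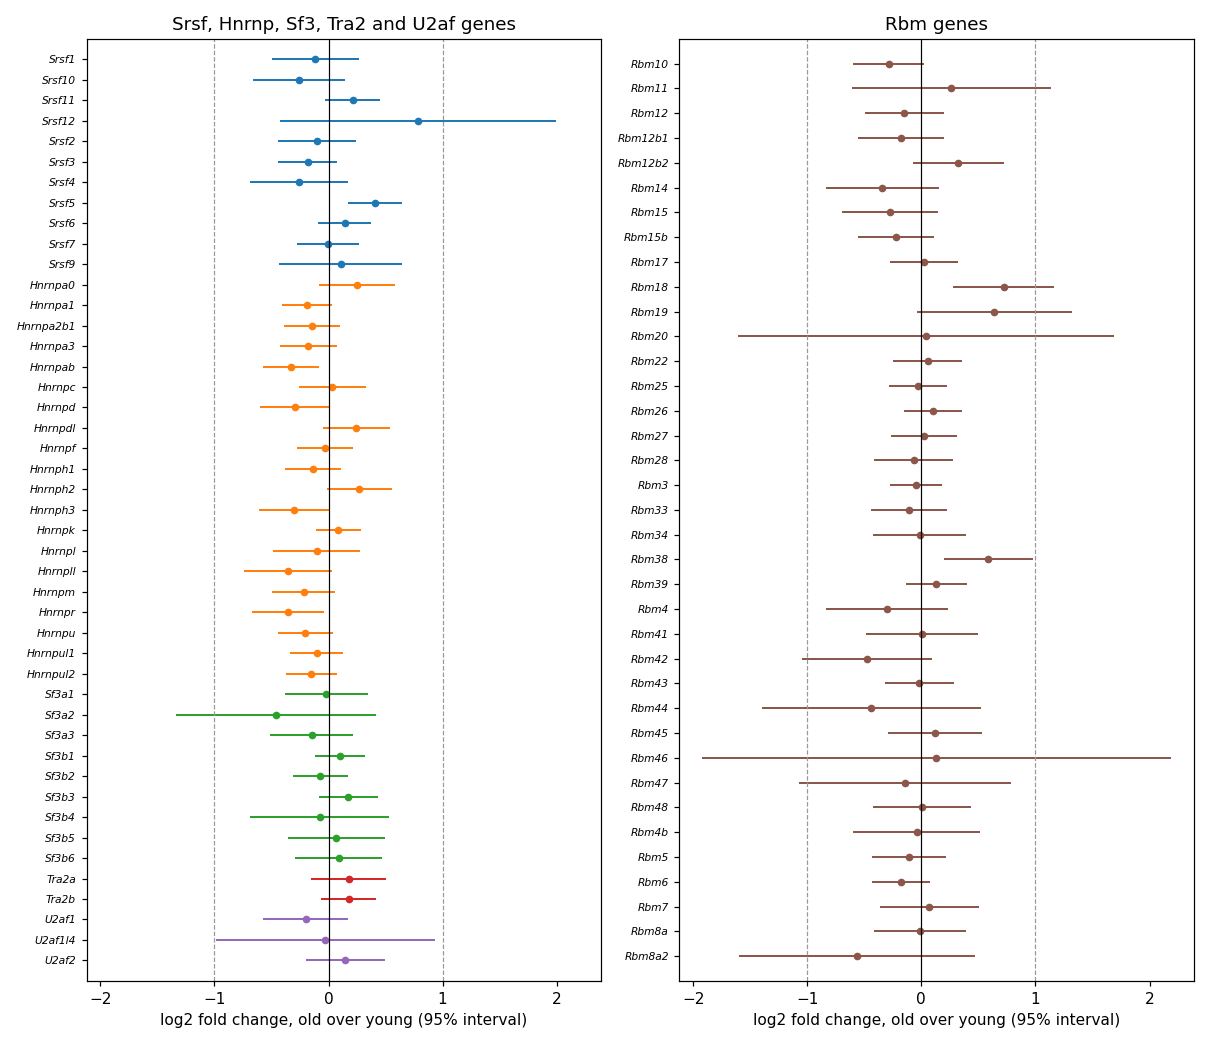
Log2 fold change of old over young (points) with its 95% interval (bars) for the 82 tested members, with Rbm genes on the right and the other classes, one colour each, on the left. Dashed lines mark 2-fold differences; no point lies beyond them, and the widest bars belong to scarce transcripts such as those of Rbm20, Rbm46 and Srsf12.

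The 4 members with the smallest p were Srsf5, Rbm18, Rbm38 and Hnrnpab, and their promoter windows are shown for that reason. Each is the 250 bases before the RefSeq start of the gene (GRCm38.p6), read 5′ to 3′ on the strand of the gene. Capitals mark the letters of 6 searched motifs on either strand, namely the GC box GGGCGG bound by Sp1 and KLF factors, the ETS motif CCGGAAG, the CCAAT box CCAAT, the cAMP response element TGACGTCA, the AP-1 motif TGACTCA and the TATA motif TATAAA. The Srsf5 window lies at chr12:80945249-80945498 (plus strand) and that of Rbm18, partly inside the GENCODE span of the gene, at chr2:36136705-36136954 (minus). That of Rbm38, inside the GENCODE span of the gene, lies at chr2:173021652-173021901 (plus) and that of Hnrnpab at chr11:51606882-51607131 (minus).
Srsf5: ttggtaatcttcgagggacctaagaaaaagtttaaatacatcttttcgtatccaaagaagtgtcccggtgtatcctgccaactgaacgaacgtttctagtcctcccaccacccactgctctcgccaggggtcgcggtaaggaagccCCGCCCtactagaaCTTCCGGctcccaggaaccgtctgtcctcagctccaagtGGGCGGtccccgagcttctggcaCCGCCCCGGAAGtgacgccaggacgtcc
Rbm18: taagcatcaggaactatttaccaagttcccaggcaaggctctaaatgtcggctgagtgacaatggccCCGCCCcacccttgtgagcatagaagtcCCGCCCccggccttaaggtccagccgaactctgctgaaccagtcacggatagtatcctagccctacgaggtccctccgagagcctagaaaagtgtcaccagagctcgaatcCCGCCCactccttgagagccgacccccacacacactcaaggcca
Rbm38: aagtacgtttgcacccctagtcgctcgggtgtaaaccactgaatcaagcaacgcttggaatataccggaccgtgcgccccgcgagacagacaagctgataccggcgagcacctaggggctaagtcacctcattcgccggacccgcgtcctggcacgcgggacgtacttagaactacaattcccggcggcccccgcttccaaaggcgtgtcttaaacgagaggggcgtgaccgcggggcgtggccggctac
Hnrnpab: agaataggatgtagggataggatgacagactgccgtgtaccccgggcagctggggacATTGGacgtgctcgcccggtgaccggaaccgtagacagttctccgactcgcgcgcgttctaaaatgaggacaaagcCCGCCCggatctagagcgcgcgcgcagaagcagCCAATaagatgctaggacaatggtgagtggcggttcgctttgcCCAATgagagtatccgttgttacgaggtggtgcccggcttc
The Srsf5 window holds 3 GC boxes and 2 ETS motifs, 1 of them overlapping a GC box, and the Rbm18 window holds 3 GC boxes. The Hnrnpab window holds 3 CCAAT boxes and 1 GC box, and the Rbm38 window has none of the 6 motifs. RefSeq windows were matched for 69 of the 83 members, 88 windows in all because some genes have several starts. Of these windows 59.1% hold a GC box, 45.5% a CCAAT box and 23.9% an ETS motif. Over the 14023 windows of tested genes the shares are 53.5%, 35.3% and 12.4%, and over all windows in RefSeq's set, 32851 in number, they are 32.7%, 33.8% and 6.91%. The AP-1 motif stands in 1 member window, that of Hnrnpa1 (1.14% against 3.28% of tested and 4.46% of all windows), and the cAMP response element in 1, that of Tra2a (1.14% against 2.3% and 1.55%). TATAAA stands in 10.2% of member windows, against 7.79% and 12.4%. These letters describe the windows, and no binding was measured.

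Among the 11 SR protein genes, 5 had a positive and 6 a negative log2 fold change (2 to 7 negative over the alternatives), and none was called. Srsf5, an SR protein of the classical set, stands on chromosome 12 from 80945504 to 80950507. Its level was 852, 941 and 1063 CPM in the 3 young libraries and 1229, 1193 and 1374 CPM in the old ones. Every old library was above every young one. The log2 fold change was 0.41 ± 0.10 (SE, 95% interval 0.18 to 0.64), and the adjusted p of 0.0517 (edgeR) lay just above the threshold. Srsf5 was called in 5 of 14 alternative analyses, namely with RLE size factors, with DESeq2, with limma-voom, with a filter of 10 counts in every library and without young replicate 3, and its log2 value stayed between 0.34 and 0.50 over all 14.

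Srsf5 was also the most abundant SR transcript per length, at 740 ± 129 CPM per kilobase of coding transcript (SD over 6 libraries). Srsf7 followed at 195 ± 19.5, then Srsf3, Srsf6 and Srsf2 at 187, 186 and 185, an order in which neighbours overlap between libraries. The level of Srsf12 was 1.11 ± 0.61 on that scale. Srsf11, an SR-related protein, was 196, 194 and 221 CPM in young and 234, 243 and 231 CPM in old libraries. Its old libraries were again all above the young ones, with a log2 fold change of 0.21 ± 0.11 and an adjusted p of 0.357 (edgeR). The remaining genes overlapped between the ages. Srsf3, the smallest classical SR protein, was 604, 463 and 492 CPM in young and 462, 465 and 446 CPM in old libraries (log2 −0.18 ± 0.11). Srsf7, a shuttling SR protein with a zinc knuckle, had a log2 value of −0.01 with an interval from −0.27 to 0.26, and its sign changed with the setting. Srsf12 had the largest fitted fold change of all members, 1.73-fold higher in old mice, but its interval on the log2 scale ran from −0.41 to 1.99. Its mean was 2.38 CPM among young libraries and 4.14 CPM among old ones.

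Young replicate 1 was the highest of all 6 libraries in 6 of the 11 SR genes (54.5%), against 30.5% of all members and 20.5% of all tested genes. Srsf1, Srsf2 and Srsf10 are given as examples picked after their values were seen. Srsf1, the first SR protein described, was 663, 399 and 406 CPM in young libraries 1, 2 and 3 and 473, 454 and 427 CPM in old ones. Srsf2, the SR protein mutated in human myeloid disease, was 393, 285 and 249 CPM in young and 302, 288 and 272 CPM in old libraries. Srsf10, which represses splicing when dephosphorylated, was 406, 263 and 227 CPM in young and 260, 262 and 228 CPM in old libraries. In all 3 genes the ages overlapped, and for Srsf1 the other 5 libraries lay between 399 and 473 CPM. Their log2 fold changes were −0.11, −0.10 and −0.26, and over the 14 alternatives they ran from −0.24 to 0.17, from −0.24 to 0.11 and from −0.42 to 0.03. Srsf4, Srsf6 and Srsf9 had log2 values of −0.26, 0.14 and 0.11.

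The transformer-2 genes Tra2a and Tra2b encode SR-like activators that bind exonic GAA-rich enhancers. Tra2b was 289, 252 and 246 CPM in young and 311, 290 and 289 CPM in old libraries, with a log2 fold change of 0.18 ± 0.11. Tra2a was 123, 93.0 and 130 CPM in young and 143, 122 and 126 CPM in old libraries, also 0.18, with an SE of 0.15. The lowest old value of each lay below the highest young one, and the adjusted p was 0.458 for Tra2b and 0.629 for Tra2a (edgeR). Per length Tra2b stood at 117.2 and Tra2a at 68.6 CPM per kilobase, and these levels did not overlap in the 6 libraries.

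**Figure D2:**
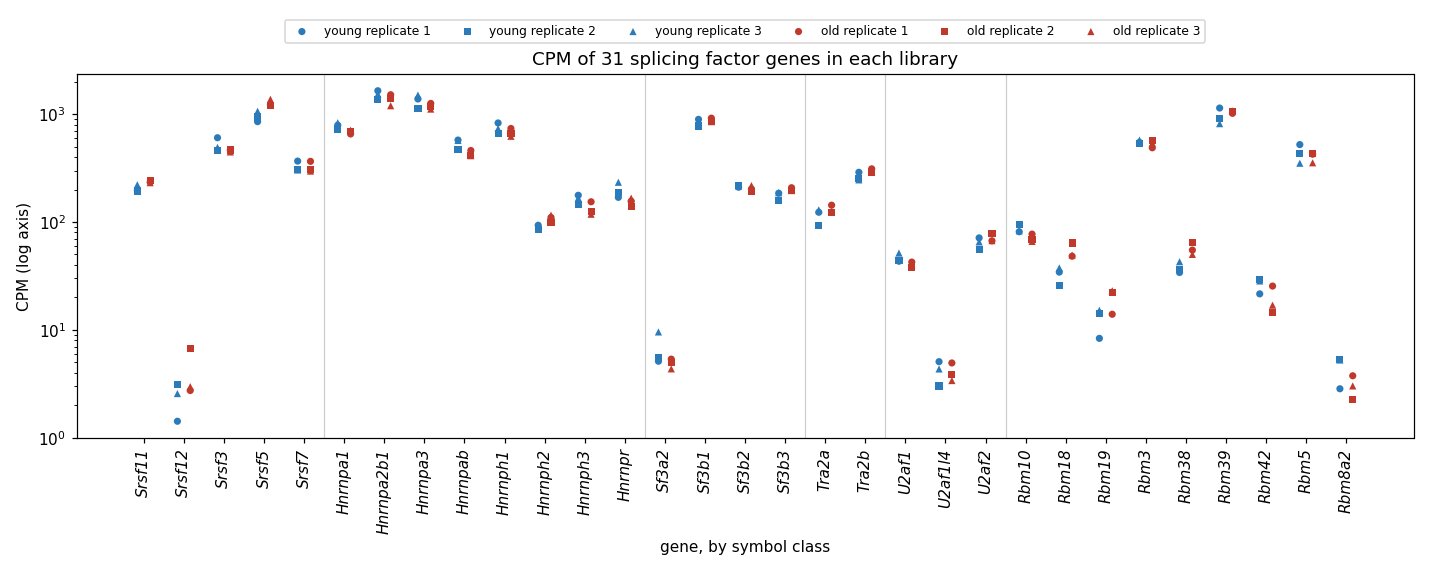
CPM (log axis) in each library of 31 members named by a fixed rule, with young libraries in blue, old ones in red and the symbol giving the replicate. The old points of Srsf5, Rbm18 and Rbm38 lie above all young ones and those of Hnrnpab below, while most genes overlap.

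Most hnRNP genes had a negative fitted value, and none was called. Of 20 genes, 15 had a negative log2 fold change, with a median of −0.15, and the negative ones numbered 14 to 16 and the median lay between −0.21 and −0.09 over the 14 alternatives. In 5 genes (Hnrnpa1, Hnrnpab, Hnrnpd, Hnrnpr and Hnrnpul2) every old library was below every young one, which was true of 10.8% of all tested genes. Hnrnpab, an RNA-binding protein of the A/B type, lies on chromosome 11 from 51600100 to 51606847. It was 575, 471 and 570 CPM in young and 460, 415 and 412 CPM in old libraries, a log2 fold change of −0.33 ± 0.11 (interval −0.57 to −0.09, adjusted p = 0.139, edgeR). Hnrnpr, whose protein resembles the one encoded by Syncrip, was 169, 187 and 234 CPM in young and 156, 138 and 166 CPM in old libraries. Its log2 value was −0.36 ± 0.14 (adjusted p = 0.216, edgeR). Hnrnph3, a member of the H and F group that binds G-rich sequence, was 177, 145 and 167 CPM in young and 154, 124 and 118 CPM in old libraries, with overlap between the ages and a log2 value of −0.30 ± 0.14.

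The A and B proteins are the abundant core of hnRNP particles. Averaged over the 6 libraries, Hnrnpa2b1 had the highest level per length of all members, 875 ± 96.2 CPM per kilobase. Its libraries ran from 726 to 1000 and overlapped those of Srsf5, from 569 to 917. Among hnRNP genes Hnrnpa3 followed at 762 ± 92.8, with overlap with Hnrnpa2b1, then Hnrnpa1 at 421 ± 38.2. Hnrnpa1, a repressor of many exons, was 790, 714 and 832 CPM in young and 655, 690 and 710 CPM in old libraries, so the ages stood apart by a narrow gap (log2 −0.19 ± 0.10, adjusted p = 0.375, edgeR). Hnrnpa2b1 was 1647, 1359 and 1534 CPM in young and 1513, 1396 and 1196 CPM in old libraries, with overlap and a log2 value of −0.15 ± 0.11. Hnrnpa3 had a value of −0.18 ± 0.11. Hnrnpa0 had 0.25, of opposite sign to the other A members, with an interval from −0.07 to 0.58.

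Paralogs did not all have the same sign. Hnrnph1 was 828, 667 and 735 CPM in young and 736, 667 and 623 CPM in old libraries, a log2 value of −0.14 ± 0.11. Its X-linked paralog Hnrnph2 was 93.3, 84.9 and 91.1 CPM in young and 110, 98.8 and 116 CPM in old libraries, all old above all young, with a value of 0.27 ± 0.13 (adjusted p = 0.318, edgeR). Whether the ratio of both differed with age was not tested. On chromosome 5, Hnrnpd and Hnrnpdl lie 54639 bases apart on the same strand, and their values were −0.29 and 0.24. Hnrnpk, which binds C-rich sequence, and Hnrnpf, of the H and F group, had values of 0.08 and −0.03, with intervals from −0.10 to 0.27 and from −0.27 to 0.20. Hnrnpu, a nuclear scaffold protein, had −0.20, Hnrnpm −0.22 and Hnrnpll, which directs CD45 splicing in lymphocytes, −0.35. Hnrnpc, Hnrnpl, Hnrnpul1 and Hnrnpul2 ran from −0.15 to 0.03.

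The SF3 complexes, which anchor the U2 particle at the branch point, were measured in 9 genes without a call. Sf3b1, the HEAT-repeat scaffold of SF3B and the most abundant of them per length (136 ± 9.49 CPM per kilobase), was 895, 776 and 777 CPM in young and 918, 855 and 852 CPM in old libraries. The ages overlapped, and the log2 fold change was 0.10 ± 0.10 with an interval from −0.11 to 0.31. Sf3b2, which binds near the branch site, was 210, 217 and 215 CPM in young and 202, 191 and 218 CPM in old libraries (−0.07 ± 0.11). Sf3b3, a large beta-propeller subunit, was 185, 159 and 187 CPM in young and 208, 195 and 196 CPM in old libraries. All old libraries exceeded the young ones for Sf3b3, with a value of 0.17 ± 0.11 and an adjusted p of 0.507 (edgeR). Sf3a2, a zinc finger subunit of SF3A, was scarce, with means of 6.73 CPM among young and 4.89 CPM among old libraries, and its value of −0.46 had an interval from −1.33 to 0.40. The other 5 subunits had values from −0.15 (Sf3a3) to 0.09 (Sf3b6).

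The U2AF heterodimer pairs a large subunit that binds the polypyrimidine tract with a small one that reads the AG of the 3′ splice site. U2af1, the small subunit, was 43.3, 43.8 and 51.5 CPM in young and 42.5, 37.8 and 40.3 CPM in old libraries. The highest old library, at 42.5 CPM, lay just below the lowest young one, at 43.3 CPM, with a log2 value of −0.20 ± 0.17 (adjusted p = 0.625, edgeR). U2af2, the large subunit, was 71.3, 55.2 and 65.4 CPM in young and 66.9, 78.7 and 67.1 CPM in old libraries (0.15 ± 0.15), with overlap. U2af1l4, a paralog of U2af1, had means of 4.14 CPM among young and 4.06 CPM among old libraries, and its sign changed with the setting. It shares 1086 exon bases with the overlapping model Gm49396, so its counts are uncertain. Among the genes mutated in clonal haematopoiesis, Sf3b1, Srsf2 and U2af1 therefore had log2 values of 0.10, −0.10 and −0.20, and none was called in any of the 14 alternatives.

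The Rbm genes share an RNA recognition motif and little else, and 37 of 38 were tested without a call. Rbm18, an RNA recognition motif protein on chromosome 2 from 36116079 to 36136773, was 34.3, 26.0 and 37.5 CPM in young and 48.2, 63.9 and 49.4 CPM in old libraries. All old libraries were above the young ones, with a log2 fold change of 0.72 ± 0.20 (interval 0.29 to 1.15, adjusted p = 0.0700, edgeR). It was called with DESeq2 (adjusted p = 0.00898) and with the filter of 10 counts in every library (edgeR adjusted p = 0.0473). Exons of Rbm18 share 385 bases with Mrrf on the opposite strand, and whether the counting used strand is not given in the sources used here. Mrrf itself had a log2 value of 0.03 ± 0.17. Rbm38, a p53 target that binds AU-rich transcripts, lies on chromosome 2 from 173020498 to 173034734. It was 34.0, 36.0 and 42.8 CPM in young and 54.9, 64.8 and 50.1 CPM in old libraries, again without overlap (log2 0.59 ± 0.18, interval 0.20 to 0.97, adjusted p = 0.0951, edgeR). Rbm38 was called with DESeq2 (adjusted p = 0.0217). Rbm19, a nucleolar factor of ribosome assembly, was 8.34, 14.3 and 15.2 CPM in young and 13.96, 22.1 and 23.0 CPM in old libraries, and the ages overlapped (0.64 ± 0.31).

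**Figure D3:**
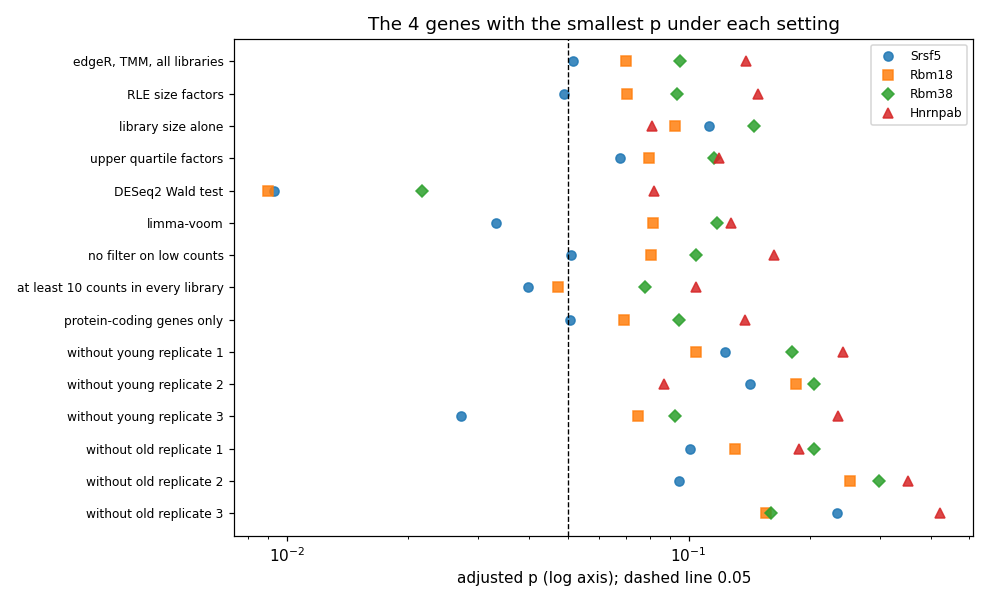
Adjusted p (log axis) of the 4 members with the smallest p under the edgeR fit to all libraries (top row) and the 14 alternatives, with the threshold of 0.05 as a dashed line. Srsf5 lies left of the line in 5 alternatives, Rbm18 in 2, Rbm38 in 1 and Hnrnpab in none.

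Rbm5, Rbm6 and Rbm10 are related regulators of exon choice in apoptosis genes. Rbm5 and Rbm6 lie 2563 bases apart on chromosome 9. Rbm5 was 522, 430 and 351 CPM in young and 425, 429 and 354 CPM in old libraries (−0.11 ± 0.14), with full overlap. The X-linked Rbm10 was 81.3, 94.4 and 82.9 CPM in young and 77.2, 68.6 and 66.1 CPM in old libraries, all old below all young (−0.29 ± 0.14, adjusted p = 0.339, edgeR). Rbm6 had −0.18. Rbm39, a U2AF-like coactivator of splicing, was 1139, 918 and 816 CPM in young and 1017, 1058 and 1074 CPM in old libraries (0.13 ± 0.12). Rbm42, a protein of the tri-snRNP, had 26.5 ± 4.29 CPM in young and 19.0 ± 5.76 CPM in old libraries (SD, n = 3 each), with a log2 value of −0.48 whose interval ran from −1.04 to 0.09. Rbm17, Rbm22, Rbm25 and Rbm48, which bind or belong to spliceosomal particles, had values between −0.03 and 0.05.

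The cold-inducible pair of Rbm3 and Cirbp was measured at very different levels. Rbm3 had the highest level per length of the Rbm genes (450 ± 26.9 CPM per kilobase). It was 547, 530 and 575 CPM in young and 488, 574 and 538 CPM in old libraries, a value of −0.05 ± 0.10. Cirbp, which is no member, was 10.4, 20.9 and 21.7 CPM in young and 18.7, 27.8 and 20.7 CPM in old libraries, a value of 0.34 ± 0.30. Both genes overlapped between the ages.

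Other Rbm members are known outside splicing. Rbm15 and Rbm15b, adaptors of the writer of N6-methyladenosine, had values of −0.28 and −0.22. Rbm7, Rbm26 and Rbm27, which link transcripts to the nuclear exosome, had 0.07, 0.10 and 0.03. Rbm8a, the Y14 subunit of the exon junction complex, had −0.01, and its paralog Rbm8a2 −0.57, the lowest value of all members, with an interval from −1.59 to 0.46. The split of reads between such near copies is uncertain. Rbm4, Rbm4b and Rbm14 lie together on chromosome 19 with values of −0.30, −0.04 and −0.34, and Rbm4 and Rbm14 share exon bases with the read-through model Gm21992. The neighbouring paralogs Rbm12b1 and Rbm12b2 on chromosome 4 had −0.18 and 0.32, and the split of reads between paralogs is uncertain here too. Rbm12b2 also shares 289 exon bases with Tmem67 on the opposite strand. Rbm12, Rbm28, Rbm33, Rbm34, Rbm41, Rbm43 and Rbm45 ran from −0.15 to 0.12. Of these, Rbm12 shares 2182 exon bases with the overlapping model Gm28036 on the same strand, so its counts are uncertain.

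Members known from other tissues were scarce, and values of Rbm20 and Rbm24 are given as examples picked after they were seen. Rbm20, a regulator of titin splicing in heart, was 1.37, 2.16 and 0.795 CPM in young and 1.90, 2.26 and 0.321 CPM in old libraries. Rbm24, a regulator of muscle splicing, had 0 counts in young replicate 2 and in old replicate 2 and at most 0.550 CPM elsewhere. A count of 0 allows up to 0.118 CPM in young replicate 2 and 0.252 CPM in old replicate 2, and these floors cover counting error only. Rbm44 and Rbm46, known from germ cells, had log2 values of −0.44 and 0.13 with intervals from −1.39 to 0.51 and from −1.92 to 2.18. Rbm47, known from gut, and Rbm11 had −0.14 and 0.26. The intervals of these 4 genes all reach beyond 2-fold in at least 1 direction.

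Other splicing and decay factors were tested from 9 lists, and 1 gene changed. In these lists 156 genes were tested, 1 (0.641%) passed an adjusted p of 0.05 (edgeR), against 3.99% of all tested genes, and 12 (7.69%) an unadjusted p under 0.05, against 16.5%. The median log2 value was −0.10, against −0.02 over all tested genes, and 103 values (66.0%) were below 0, against 51.8%. The called gene was Luc7l3, a U1-associated protein related to yeast Luc7. It was 455, 402 and 445 CPM in young and 356, 309 and 287 CPM in old libraries and fell by 0.45 ± 0.11 on the log2 scale (adjusted p = 0.0453, edgeR). Luc7l3 lost the call in 8 of 14 alternatives, including each fit without 1 library, where the adjusted p ran up to 0.248. Among 10 U1 proteins Luc7l3 was the 1 call, and Luc7l2 had −0.19. None of 7 Sm core proteins was called, with Snrpe at −0.41 and Snrpd1 at −0.35, nor any of 13 U2 proteins, with Cherp at −0.33 and U2surp at −0.21.

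None of 23 tri-snRNP proteins passed, with Lsm3 at −0.60 ± 0.21 and Snu13, a binder of the U4 kink-turn, at 0.31 ± 0.13. None of 29 factors of the Prp19 complex and the catalytic and release steps passed, with Cwc27 at −0.39 and the second-step factor Slu7 at 0.31. Of 13 exon junction and SR-related genes none passed, and Acin1 and Srrm1 had −0.25 and −0.22. The kinases that phosphorylate SR proteins, with their importins and arginine methyltransferases, held 15 genes without a call, among them Srpk1 at −0.26 and Dyrk1a at 0.29. Of 34 other sequence-specific regulators none passed. Tardbp, the RNA-binding protein TDP-43, was 461, 383 and 366 CPM in young and 341, 286 and 261 CPM in old libraries (−0.45 ± 0.13, adjusted p = 0.084, edgeR), and Ptbp2, the polypyrimidine tract protein of neurons, had −0.47 ± 0.15. Tardbp was called with DESeq2, with library size alone and with the filter of 10 counts in every library, and Ptbp2 with DESeq2. None of 12 nonsense-mediated decay factors passed, with Upf3a at −0.36 and Gspt1 at −0.12.

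**Figure D4:**
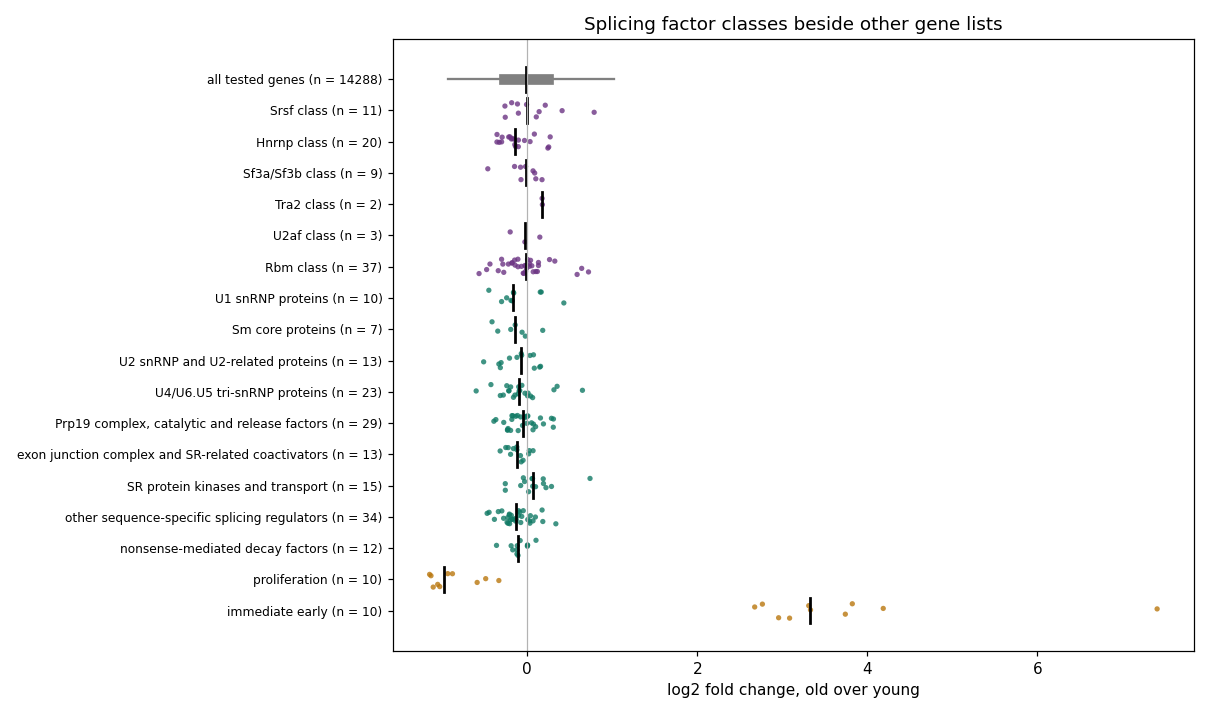
Log2 fold change of old over young for each gene (points) of the 6 symbol classes, the 9 lists of other splicing and decay factors and 2 marker lists, with black bars for medians. For all tested genes the thick bar spans the middle 50% and the thin line the middle 90%; proliferation genes (median −0.98) and immediate early genes (median 3.32) lie apart from the splicing classes.

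The same libraries differed in other gene groups. Of 10 proliferation markers 7 fell and none rose, and their summed level ran from 3138 to 3685 CPM in young and from 1402 to 2025 CPM in old libraries. Of 10 immediate early genes all 10 rose, from a sum of 382 to 448 CPM in young to 3569 to 4134 CPM in old libraries. Summed macrophage markers ran from 41.6 to 69.0 CPM in young and from 14.4 to 18.6 CPM in old libraries, with Adgre1 and C1qb at 0 in all old ones, and 5 of 8 tested genes fell. Erythroid markers summed to 346, 129 and 99.0 CPM in young libraries and to 62.7 to 68.6 CPM in old ones, with 3 of 6 tested genes fallen. Neutrophil markers summed to 215, 15.4 and 42.4 CPM in young libraries and to 3.44 to 8.20 CPM in old ones, with 4 of 4 tested genes fallen. Lymphoid markers summed to 6.51 to 8.62 CPM in young and 4.31 to 9.31 CPM in old libraries, with none of 2 tested genes called. Endothelial markers summed to 123 to 193 CPM in young and 194 to 237 CPM in old libraries, with 2 of 5 tested genes risen. The part of these differences in the levels of splicing factors was not tested.

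Young replicate 1 had the highest erythroid and neutrophil sums of all libraries, and also the highest proliferation sum (3685 CPM) and the lowest endothelial sum (123 CPM). The part of any of these traits in the levels of members was not tested. Young replicate 1 was the highest young library for 37 of 82 members (45.1%), against 34.7% of all tested genes. It was the highest of all 6 libraries for 25 members (30.5%), against 20.5% of all tested genes. Neither share was particular to the members. For the 156 tested genes in the lists of other splicing and decay factors the shares were 48.7% and 34.6%. For SR genes the median deviation from the mean of the 6 libraries was 0.18 on the log2 CPM scale in young replicate 1, −0.12 in young replicate 2 and −0.09 in young replicate 3. In old libraries the same median ran from −0.09 to 0.03. For hnRNP genes the medians were 0.13, −0.04 and 0.09 in young replicates 1, 2 and 3 and −0.0036, −0.06 and −0.06 in old replicates 1, 2 and 3. As a share of all counts the 82 members took 2.12%, 1.88% and 2.11% in young and 2.01%, 1.86% and 1.87% in old libraries, which overlap. The hnRNP share was 1.03% ± 0.0834 in young libraries and 0.908% ± 0.0491 in old ones (SD over 3 libraries), and the SR share 0.359% ± 0.0298 and 0.366% ± 0.0152. Both shares overlapped between the ages.

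**Figure D5:**
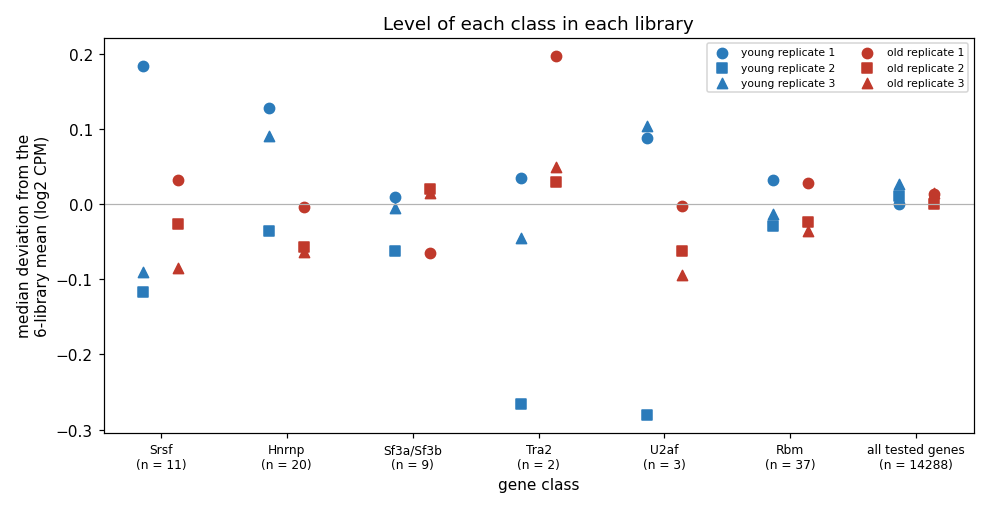
Median over the genes of each class of the deviation of log2 CPM from the mean of the 6 libraries, by library (blue young, red old, symbol by replicate). Young replicate 1 is the highest library for the Srsf class (0.18) and the Hnrnp class (0.13). The Tra2 and U2af medians rest on 2 and 3 genes.

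The ages stood apart without overlap in 13 members. In 6 members every old library was above every young one (Srsf5, Srsf11, Hnrnph2, Sf3b3, Rbm18 and Rbm38) and in 7 below (Hnrnpa1, Hnrnpab, Hnrnpd, Hnrnpr, Hnrnpul2, U2af1 and Rbm10). These 13 are 15.9% of members, against 22.4% of all tested genes (11.6% above and 10.8% below). The median spread between libraries of one age was 0.18 on the log2 scale for members and 0.30 for all tested genes, whose levels are lower.

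The annotation lists transcripts that are targets of nonsense-mediated decay. At least 1 such transcript is listed for 37 of 82 tested members (45.1%), against 26.9% of all tested genes. In the 9 lists of other splicing and decay factors the share was much like that of members, 44.9% of 156 tested genes. Among members the count was 9 of 11 SR genes, 10 of 20 hnRNP genes, both Tra2 and all 3 U2af genes, 1 of 9 SF3 genes and 12 of 37 Rbm genes. Rbm39 and U2af1l4 have the most, 8 each. The median log2 fold change was −0.03 for members with and −0.07 for members without such a transcript. Since the counts add up all transcripts of a gene, productive and decay transcripts cannot be told apart. Exon bases shared with another gene of the table were found for 17 members, for 13 of them with a gene on the opposite strand. Hnrnpab shares 809 bases with Phykpl, which had a log2 value of 0.12 ± 0.20 with means of 45.3 CPM among young and 49.3 CPM among old libraries.

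The authors' deposited table, which gives log2 values as young over old, lists 1 of the 83 members with an adjusted p under 0.05, against 6.17% of its genes with an adjusted p. This was Rbm38, with −0.63 ± 0.17 (SE) and an adjusted p of 0.00676 in the authors' deposited table. Srsf5 has −0.36 ± 0.13 there with an adjusted p of 0.0896 in the authors' deposited table, Rbm18 −0.44 with 0.286 and Hnrnpab 0.30 with 0.209. Of the 83 members in the authors' deposited table, 46 have a positive and 37 a negative value as young over old. Not every member has the same direction there as in the fit here. Srsf11 has 0.02 ± 0.14, Sf3b1 0.04 ± 0.16 and Hnrnpu −0.04 ± 0.15 (SE) as young over old, each opposite in direction to its value here. Srsf5, Rbm18, Rbm38 and Hnrnpab keep their direction.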

How the data were processed

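RNA of sorted HSCs was purified with a PicoPure kit and made into libraries with a Nugen Ovation Trio low-input kit per the labels' protocols. The read length was 50 bases, from one end. Salmon, DESeq2, FastQC, MultiQC and GRCm38 stand in the submitters' processing notes, with neither versions nor roles. The authors deposited estimated counts as whole numbers, so none was rounded here. The authors' deposited table holds a base mean (a normalised signal), log2 fold changes with their SE, a test score and p-values; all 570 genes called here have the opposite sign there, so its log2 values are young over old. Columns were matched to samples by title. Replicate numbers follow the accessions and pair nothing, and nothing else tells whether libraries came from pooled mice. The p-values therefore set the difference between the ages against the spread between these libraries.

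The tests ran in edgeR 4.0.16 (R 4.3.3): default filter (minimum count 10, minimum total 15), TMM scaling, quasi-likelihood F test of old against young over 14288 genes, two-sided, Benjamini-Hochberg adjustment and a threshold of 0.05. Intervals of 95% use the SE implied by the F value and its degrees of freedom. DESeq2 1.42.0, limma 3.58.1 (voom), other scalings and filters and the loss of each library were alternatives. The fit was tested on simulated data. CPM per kilobase divides by the median length of a gene's basic coding transcripts in GENCODE M21 (GRCm38), which also gave symbols, coordinates and transcript types. Genes described by rule were the 3 of smallest p and 2 of highest level per length in each class, 6 pairs of paralogs, the 3 largest fold changes each way, and, per pathway list, called genes and the 2 of smallest p. Other members are given with their fitted fold change, and for some its interval, so that each member is accounted for. Per-library values outside the rule are named as such. The members and lists were chosen with earlier results of these data known.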

Additional observations from a re-analysis of the deposited data

How the results depend on the processing

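No paired analysis was possible because the labels give the libraries no shared replicate numbers. Over 14 alternatives no member was called lower in old mice. The number of members called higher, 0 in the fit of all libraries, was 1 with RLE size factors, 1 with limma-voom, 3 with DESeq2, 2 with at least 10 counts in every library and 0 to 1 when 1 library was left out, the 1 being Srsf5 without young replicate 3. The count of all genes called, 570, was 1100 with DESeq2 and 245 to 473 without 1 library (322, 345 and 245 without old replicates 1, 2 and 3). The number of pathway genes called, 1, was 0 with RLE size factors, 0 without a filter, 2 with library size alone, 3 with DESeq2, 2 with at least 10 counts in every library and 0 to 0 without any 1 library. The median log2 fold change of members moved from −0.035 to −0.093 with library size alone and ran from −0.074 to 0.0019 without 1 library.

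Of the 50 genes named by the rule (31 members and 19 pathway genes), 46 kept their sign in all 14 alternatives. Of the other 51 tested members, 26 had the other sign in at least 1 alternative, so that 30 of all 82 did. Srsf7 (−0.0075) was 0.0070 with limma-voom and 0.0014 without a filter, and ran from −0.095 to 0.088 without 1 library. U2af1l4 (−0.027) was 0.0071 with limma-voom and ran from −0.21 to 0.14 without 1 library. Rbm3 (−0.05) ran from −0.098 to 0.022 and was positive without old replicate 1. Rbm5 (−0.11) ran from −0.24 to 0.045 and was positive without young replicate 1. For sign changes and lost calls the cause was not tested. Depth was lowest in old replicate 2, where a count of 0 allows up to 0.252 CPM.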
